A study of Drosophila melanogaster with 2 samples.

Results

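The 8 homeotic (Hox) genes of Drosophila melanogaster, lab, pb, Dfd, Scr, Antp, Ubx, abd-A and Abd-B, were examined for peaks of the chromatin protein CG31365. A peak was assigned to a Hox gene when its summit lay in the gene body or within 5000 bp of it, by the Ensembl annotation of assembly dm6 (BDGP6). The rule took 139 of the 30000 peaks called on both replicates together (the pooled list) and 10 of the 2821 peaks kept by the irreproducible discovery rate step (IDR peaks). It took 123 of the 30000 peaks of replicate 2 and 139 of the 30000 of replicate 3. Each list of 30000 also holds background regions, per the file listing. These genes were selected on measured values, the positions of their peaks and the height of the leading Antp peak in these lists, so the signal values and ranks of these peaks are given as a description, with no test.

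The libraries came from whole embryos of a transgenic fly line that carries CG31365 fused at its C terminus to GFP, aged 0 to 24 h, with both sexes pooled. Both libraries, biological replicates 2 and 3, belong to 1 group, and no library of another genotype or treatment was analysed here. The promoter that drives the transgene is not given in the sources used here. Labels describe the libraries as ChIP-seq of CG31365 but also as input controls in 1 free-text entry, and the file listing shows peaks called against a separate control. Read depth was unknown, so no interval below covers sequencing error. In whole embryos, strong binding in few cells and weak binding in many cells cannot be told apart.

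Hox genes encode homeodomain transcription factors that give the segments of the body their identities along the axis from head to tail. In the fly they lie in the Antennapedia complex (lab, pb, Dfd, Scr and Antp, for head and thorax) and the bithorax complex (Ubx, abd-A and Abd-B, for posterior thorax and abdomen). Both lie on chromosome arm 3R. Their regulatory DNA is spread over long introns and intergenic stretches, and outside the segments where they act these genes are held silent by Polycomb group proteins.

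The highest Hox peaks carried the word AAGCAGT, which an earlier search of these lists had found under the highest peaks. The copies within 100 bp of an IDR summit at a Hox gene are printed because they mark the highest Hox peaks, each read 5′ to 3′ on the strand that holds the word. Capitals mark the word, and 10 bases stand on each side. Sequences are from the RefSeq copy of dm6.
Antp peak, minus strand, chr3R:6908214-6908240: gcagacgcgcAAGCAGTtcacgcagat
Antp peak, plus strand, chr3R:6908270-6908296: acacaatataAAGCAGTacatctagac
Antp peak, minus strand, chr3R:6908285-6908311: aagcagtaaaAAGCAGTctagatgtac
Antp peak, minus strand, chr3R:6908295-6908321: cagcgaagcaAAGCAGTaaaaagcagt
Scr downstream peak, plus strand, chr3R:6819396-6819422: gttttgtgcaAAGCAGTgcaaaccagt
Scr downstream peak, plus strand, chr3R:6819416-6819442: aaccagtttaAAGCAGTacacaaaact
Scr upstream peak, plus strand, chr3R:6854407-6854433: ggaccgctgcAAGCAGTgcatcctgct
Dfd downstream peak, minus strand, chr3R:6806965-6806991: gttaaaaagcAAGCAGTgctcacttct
The last 2 Antp windows overlap, so each shows the other's word in lower case. The Scr upstream and Dfd copies stand within GCAAGCAGTGC, the word with the base most often found at each of 4 flanking positions at IDR summits on 2L, 3L, X and 4.

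Antp, which directs thoracic identity, held the highest Hox peak and the most peaks. Its coordinates were 3R, 6908005 to 6908816. The deposited signal value (column 7), the authors' own value for each peak and used only to describe and rank peaks within a list, was 7722 in the pooled list, at rank 6 of 30000. This value was 5098 at rank 4 in replicate 2, and 2665 at rank 10 in replicate 3, with summits 0 and 8 bp from the pooled summit. Both replicates therefore placed it among their 10 highest peaks. The summit lay 24575 bp from the nearest Antp start site. It fell in the last intron of 11 of the 12 annotated Antp transcripts and in the 3′ UTR of the other, Antp-RH. The peak also lay in an intron of CG46458, a gene on the same strand that shares this span, so its position does not tell the genes apart. The 4 copies of AAGCAGT were centred 18 to 43 bp from the summit.

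The remaining 3 Antp IDR peaks were intronic and far lower. The highest of them (3R, 6912212 to 6912464) reached 343 in the pooled list, 197 in replicate 2 and 148 in replicate 3, at ranks 548, 501 and 644. It lay in an intron of all 12 transcripts, 20523 bp from the nearest Antp start. The next (3R, 6914381 to 6914764, pooled signal 149, rank 2059) was the higher in replicate 3, with 93.3 and rank 1344, against 61.2 and rank 3537 in replicate 2. It was the only Hox IDR peak, among the 9 with a summit within 100 bp in both lists, whose signal value was higher in replicate 3. The last (3R, 6973229 to 6973612, pooled signal 124, rank 2814) lay in the first intron of the 5 transcripts that start furthest upstream. Its signal value was 69.2 in replicate 2 and 54.1 in replicate 3, at ranks 2830 and 3506, so it stood below the 2821 highest peaks of both replicates. None of these 3 peaks held AAGCAGT.

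Scr, which acts in the labial and prothoracic segments, had an IDR peak on each side and none in its body. The downstream peak (3R, 6819069 to 6819737) reached a signal value of 3743 and rank 37 in the pooled list, with 2436 and rank 35 in replicate 2 and 1323 and rank 46 in replicate 3. It lay 3722 bp beyond the 3′ end of Scr and 496 bp from the start of tRNA:Lys-TTT-2-1, a lysine tRNA gene. The upstream peak (3R, 6854275 to 6854739) lay in intergenic sequence 4482 bp from the nearest Scr start. It reached 1777 and rank 83 in the pooled list, 1033 and rank 86 in replicate 2, and 749 and rank 83 in replicate 3. The replicates put this peak within 3 ranks of each other.

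Dfd, which acts in the mandibular and maxillary segments, had its only IDR peak downstream (3R, 6806650 to 6807145). The summit lay 4463 bp beyond the 3′ end of Dfd and 2691 bp from the start of mir-10, a microRNA gene of the complex. The signal value was 1484 in the pooled list, 902 in replicate 2 and 584 in replicate 3, at ranks 96, 94 and 104. The single AAGCAGT copy was centred 87 bp from the summit, the furthest of the 8 copies shown.

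**Figure D1:**
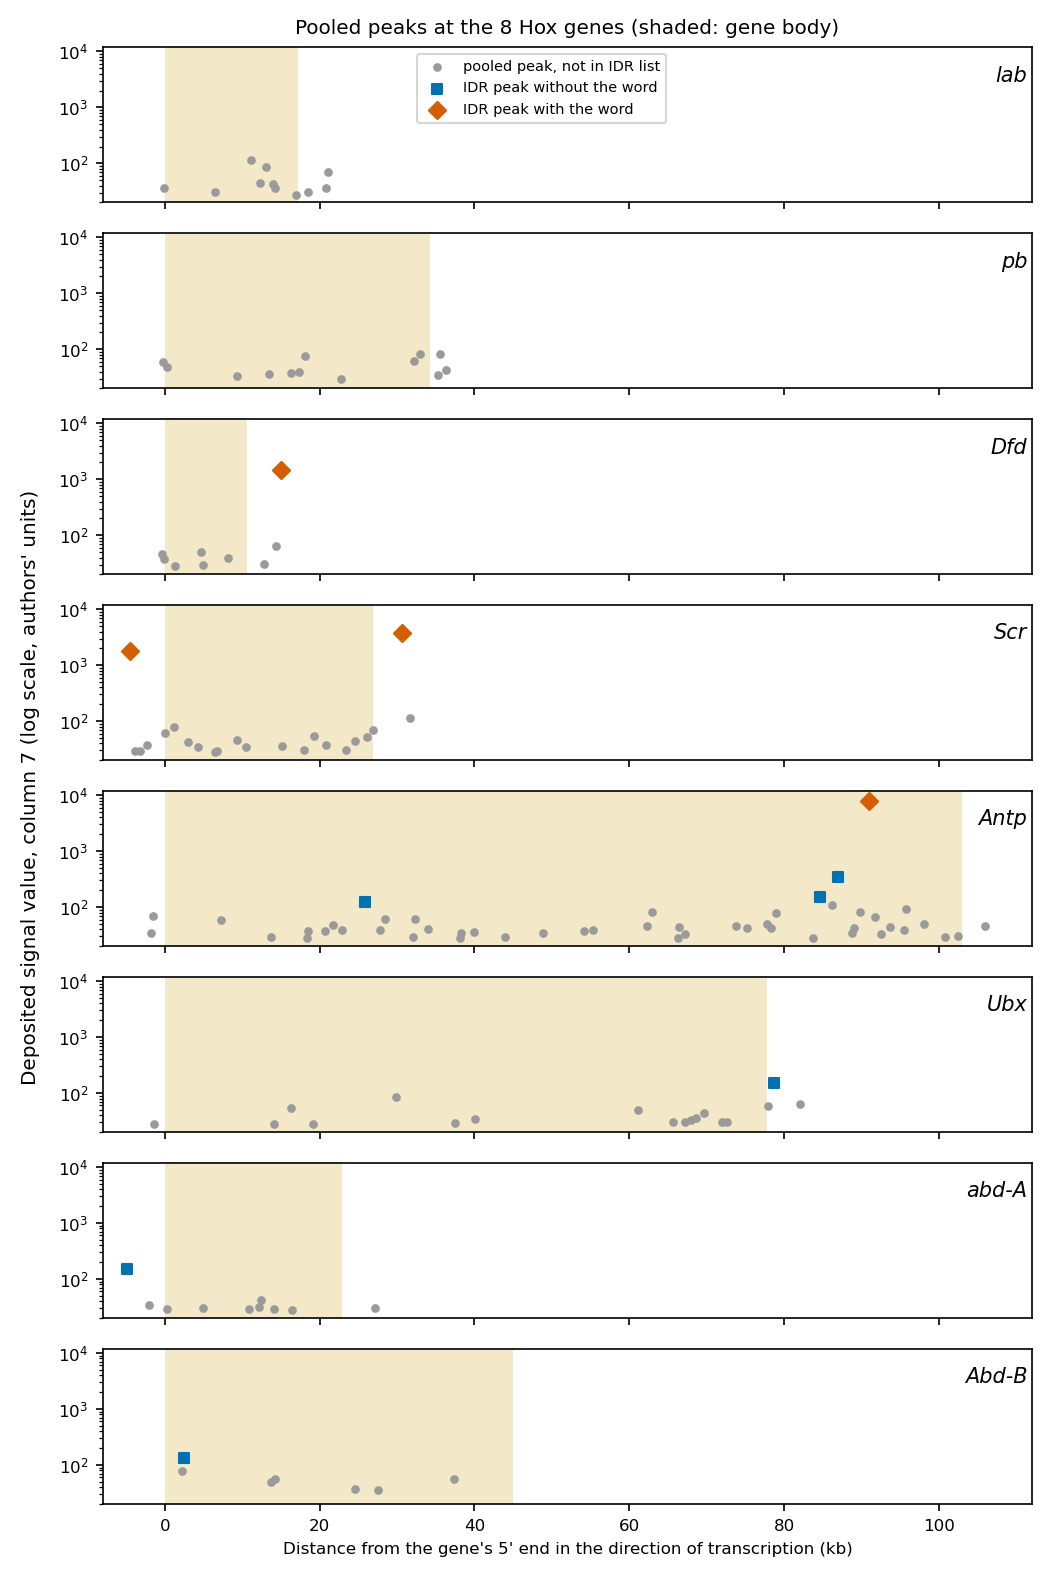
Each panel plots the pooled peaks of 1 Hox gene, with the distance of the summit from the gene's 5′ end in kb on the x axis and the deposited signal value on a log y axis. Shading marks the gene body, grey circles are peaks outside the IDR list, blue squares are IDR peaks without the word AAGCAGT and orange diamonds are IDR peaks with it. The 4 orange peaks, from 1484 to 7722, stand above every other Hox peak, and 3 of them lie outside the shaded bodies.

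The bithorax complex genes had 3 IDR peaks, all without AAGCAGT and all of low signal. The Ubx peak (3R, 16655539 to 16655922; signal 152, rank 1985) lay 892 bp beyond the 3′ end of Ubx, which shapes the posterior thorax. Its summit was 69 bp from the start of modSP, which encodes a serine protease of the Toll pathway. Its signal value was 94.7 in replicate 2 and 57.5 in replicate 3. Upstream of abd-A, which acts in the abdomen, a peak at 4816 bp (3R, 16834673 to 16835056; signal 149, rank 2049) fell within introns of lncRNA:iab8 and MSAmiP. It had 95.6 in replicate 2 and 51.0 in replicate 3. Abd-B, the gene of the posterior abdomen, had a peak 1159 bp from a start (3R, 16969541 to 16969924; signal 135, rank 2452), in an intron of 1 of its 10 transcripts. It had a summit 54 bp away in replicate 2 (signal 90.7) and none within 100 bp in replicate 3, where the nearest summit was 139 bp away (signal 58.7, rank 3020). These 3 peaks were among the 2821 highest of replicate 2 and not among those of replicate 3.

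The 10 IDR peaks at the Hox genes thus fell into a high and a low set with a gap between. The 4 peaks with AAGCAGT had ranks 6 to 96 and signal values from 1484 to 7722, and the 6 without it had ranks 548 to 2814 and signal values from 124 to 343. Over all IDR peaks 13.2% held the word, and over all pooled peaks 3.73%. Both lists consist mostly of peaks lower than these 4, and the share among peaks of like rank is not given here. Since the word was found through the highest peaks of these lists, its presence at the highest Hox peaks adds no independent support. Among the 2821 highest peaks of their own lists, replicate 2 had 8 of the 10 Hox IDR peaks and replicate 3 had 6. They shared 5, the 4 with the word and the Antp intronic peak of rank 548.

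**Figure D2:**
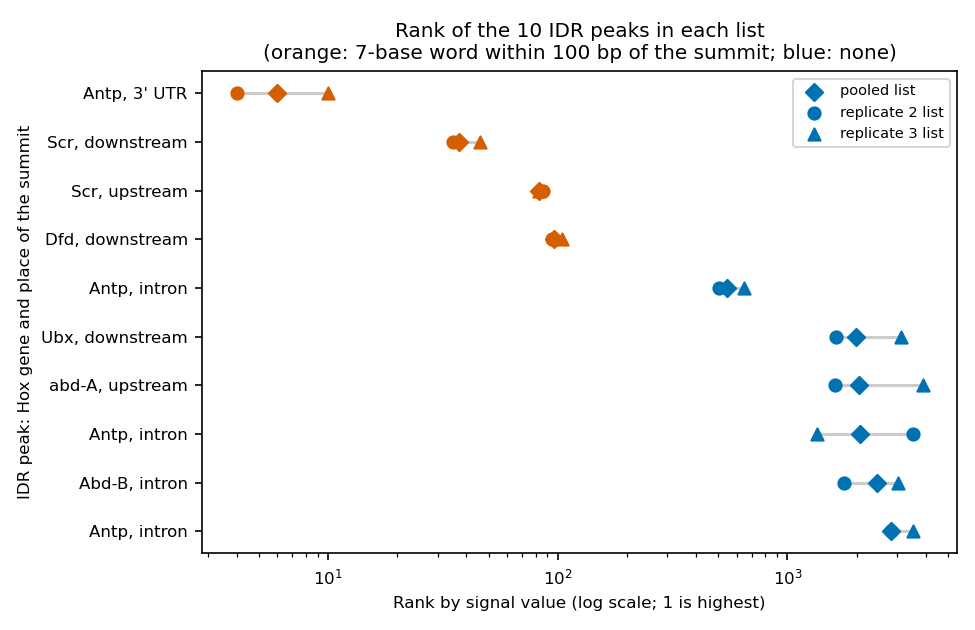
Rank of each of the 10 Hox IDR peaks by signal value, on a log x axis, in the pooled list (diamonds), replicate 2 (circles) and replicate 3 (triangles), where the nearest summit of each replicate list is used. Orange peaks hold AAGCAGT within 100 bp of the summit and stay between ranks 4 and 104 in every list, while blue peaks lie between ranks 501 and 3879 (Abd-B in replicate 3 by a summit 139 bp away).

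Of the 8 Hox genes 6 (75.0%) had an IDR summit in the body or within 5000 bp, and lab and pb had none. The same was true of 33.8% of 13945 protein-coding genes, which are mostly shorter, and of 54.1% of the 1977 with a body of 10 kb or more. The rule chose on these positions, so nothing is read from the difference. Among the pooled peaks at the Hox genes 7.19% (10 of 139) were IDR peaks, against 9.40% of the whole pooled list. The IDR peaks lay away from promoters in 8 of 10 cases, over 1000 bp from any start site, against 37.7% of all IDR peaks. The other 2 were at tRNA:Lys-TTT-2-1 and modSP. Of the 8, the Abd-B peak was close to the limit, at 1159 bp. The genes were selected on peak positions, so nothing is read from this difference either.

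No IDR summit lay within 1000 bp of any of the 19 annotated start sites of the 8 genes. Pooled summits of low rank lay within 1000 bp of 12 of them. The same counts over all annotated start sites are not given here. The genes were selected on the positions of their peaks, so nothing is read from either count. The 15 pooled peaks at these starts had signal values from 28.0 to 78.2, and their best rank was 6008, at Scr (3R, 6848566 to 6848949). That Scr peak lay 253 bp upstream of the start used by 4 of the 5 Scr transcripts, with 37.5 in replicate 2 and 31.8 in replicate 3. A further Scr peak stood 10 bp from the upstream start (signal 61.6). The pb start, of the mouthpart gene proboscipedia, had a peak 172 bp upstream (58.9 in the pooled list, 33.9 in replicate 2, 20.5 in replicate 3). The Ubx start had no pooled summit within 1000 bp, the nearest being 1427 bp away with a signal value of 28.4. At Antp the start used by 6 transcripts had a summit at 79 bp (signal 43.6, in replicate 2 alone), and the furthest upstream start had none within 1000 bp.

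Positions and heights of all Hox peaks were then counted. Of the 139 pooled peaks 94 (67.6%) had their summit in an intron of the Hox gene with no exon of its transcripts there, 4 in coding exons, 5 in 5′ UTRs and 5 in 3′ UTRs. A further 14 lay upstream and 17 downstream of the gene. The intronic share by this rule was not computed over all peaks. Over 1000 bp from any start site lay 107 of the 139 (77.0%, 95% Wilson interval 69.3 to 83.2), against 58.5% of all pooled peaks. This is the position that the rule was written for, in genes with long introns. The 129 peaks outside the IDR list had signal values from 27.5 to 116 with a median of 37.8, against a median of 40.5 over all pooled peaks outside it.

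Each pooled peak was looked up in the replicate lists. At the Hox genes 47 of 139 pooled peaks (33.8%, interval 26.5 to 42.0) had a summit within 100 bp in both replicate lists, against 39.0% of all pooled peaks. Another 76 had a partner in 1 list, 39 in replicate 2 and 37 in replicate 3, and 16 had none, as had 11.2% of all pooled peaks. Of the 129 peaks outside the IDR list 38 (29.5%) had both partners, against 33.0% of all pooled peaks outside it. These 38 had signal values from 30.9 to 116 (median 61.3), and 25 of them were intronic. Antp had 14 such pooled peaks with both partners of 49, Ubx 8 of 18, pb 7 of 13, Scr 7 of 22 and Dfd 5 of 9, IDR peaks included. Each of lab, abd-A and Abd-B had 2, of 11, 10 and 7. Peaks with no partner in either list numbered 10 at Antp, 4 at Ubx, 1 at Dfd and 1 at abd-A.

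**Figure D3:**
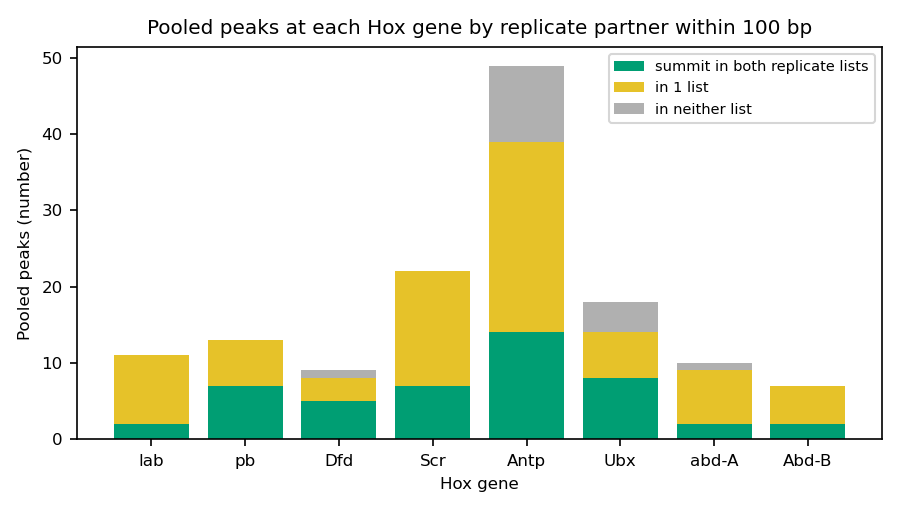
Number of pooled peaks at each Hox gene, stacked by whether a summit lay within 100 bp in both replicate lists (green), in 1 of them (yellow) or in neither (grey). Antp has the most peaks, 49, and 14 of these have both partners, while 2 of 11 do at lab.

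Among the Hox peaks outside the IDR list, the highest lay next to the Scr downstream peak and in lab. The Scr one (3R, 6818136 to 6818519; pooled signal 116, rank 3179) had 68.5 in replicate 2 and 47.0 in replicate 3. Labial, encoded by lab, acts in the embryonic head and midgut, and both its highest peaks lay in the long first intron of lab-RA (14144 bp). The higher (3R, 6667258 to 6667641) had a signal value of 115, rank 3202, with 65.4 in replicate 2 and 45.6 in replicate 3. The lower (3R, 6665296 to 6665679) had 87.7, with 53.5 and 34.4. At Antp a peak between the 2 higher intronic IDR peaks (3R, 6912854 to 6913237; signal 107, rank 3632) had 53.4 and 56.7. The highest peak of pb (3R, 6706347 to 6706730; signal 83.6, rank 5421) lay 1261 bp downstream, with 63.3 in replicate 2 and 20.6 in replicate 3. In Ubx an intronic peak 29895 bp from the start (3R, 16704339 to 16704722; signal 84.9, rank 5272) had 46.8 and 41.2, and was the highest inside the gene. The Abd-B intron held a second peak 1428 bp from a start (3R, 16969810 to 16970193; signal 78.5), with 35.6 and 25.7. In abd-A the highest peak inside the gene (3R, 16817414 to 16817797) had 42.9, with 25.4 and 18.5.

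The remaining Hox peaks with a partner in both replicates were low and spread over the genes. At pb they had pooled signal values of 83.2 (last intron, with 62.9 in replicate 2 and 19.1 in replicate 3), 76.3 (an intron, 41.1 and 29.1), 62.0 (a coding exon, 33.3 and 36.4), 48.7 (the 5′ UTR, 21.6 and 25.1) and 42.9 (2033 bp downstream, 17.9 and 17.5). By rank within its list, the peak of 83.2 stood higher in replicate 2 (rank 3345, against 20484 in replicate 3). The peak of 62.0 stood higher in replicate 3 (rank 6808, against 9917 in replicate 2). At Dfd, besides the IDR peak, a peak 3762 bp downstream had 65.1 (44.8 and 30.2), intronic peaks had 50.1 and 39.6, and a peak 129 bp upstream of the start had 37.8 (20.1 and 17.4). At Scr a peak 54 bp beyond the gene had 70.5 (52.2 and 16.1) and stood 31 bp from the start of another lysine tRNA gene, tRNA:Lys-TTT-2-4. An Scr intronic peak had 54.2 (29.2 and 23.9).

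At Antp the other such peaks were in introns, apart from the coding-exon peak of 81.2. An intronic peak 29284 bp from the nearest Antp start (3R, 6903364 to 6903747; signal 94.5) had 24.7 in replicate 2 and 57.4 in replicate 3, and 1126 bp from it lay the start of lncRNA:CR43252. Peaks of 80.8 (44.8 and 37.6) and 78.4 (28.8 and 44.4) lay 3494 and 12584 bp from a start. Those below had 61.1, 50.2, 45.8, 42.0 and 38.6. At Ubx, downstream peaks of 64.9 (29.9 and 38.7) and 58.9 (20.8 and 39.5) stood higher in replicate 3 by rank within the list. Their ranks there were 6133 and 5927, against 11863 and 21750 in replicate 2. The peak of 64.9 lay 72 bp from the start of CG14907. Ubx intronic peaks of 53.3, 48.9, 36.5 and 30.9 lay 16309 to 71927 bp from the Ubx start. At Abd-B an intronic peak had 50.3 (31.1 and 37.2), 1826 bp from a start.

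**Figure D4:**
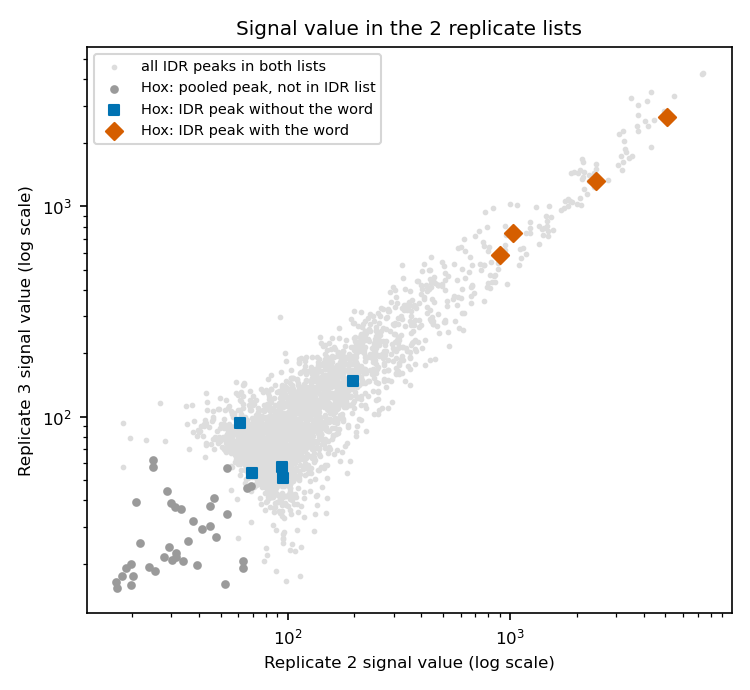
Signal value in replicate 2 (x axis) against replicate 3 (y axis), both on log scales, for Hox pooled peaks with a summit in both lists, over all 2711 such IDR peaks in light grey. The 4 Hox peaks with AAGCAGT (orange) stand apart at 902 or more in replicate 2 and 584 or more in replicate 3, and Hox peaks outside the IDR list (dark grey) gather at the low end.

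Signal values of replicate 2 were above those of replicate 3 for most peaks, at the Hox genes and elsewhere. Over the 2711 IDR peaks with both partners the ratio of replicate 2 to replicate 3 had a median of 1.18 and quartiles of 0.941 and 1.52. The 9 Hox IDR peaks with both partners had ratios from 0.656 (Antp intron) to 1.91 (the leading Antp peak). The scale of column 7 is not given in the sources used here, so ratios between lists are not read as differences in binding.

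The replicate lists were also read on their own. Replicate 2 had 123 peaks at the Hox genes, 86 with a pooled summit within 100 bp and 48 with one in replicate 3 (39.0%, against 38.5% of the whole list). Replicate 3 had 139, of which 84 had a pooled partner and 48 one in replicate 2 (34.5%, against 38.5%). Each list had 8 Hox peaks among its 2821 highest, of 123 and 139 Hox peaks, where 2821 of 30000 is 9.40%. In replicate 2 all 8 were partners of IDR peaks. In replicate 3 6 were, and the others were a second summit within the Scr upstream interval (signal 92.7, rank 1361) and a peak at an Antp coding exon (3R, 6909276 to 6909659, signal 62.2, rank 2702), which had a signal value of 24.7 in replicate 2.

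Pooled peaks, in a list that also holds background regions, were denser in the Antennapedia complex than in the bithorax complex. The regions of its 5 genes (242 kb with the 5000 bp on each side) held 104 pooled peaks, or 4.30 per 10 kb, with 7 IDR peaks. The regions of the 3 bithorax genes (176 kb) held 35 pooled peaks, or 1.99 per 10 kb, with 3 IDR peaks. The whole genome had 2.24 pooled peaks per 10 kb, and the median protein-coding gene of 10 kb or more had 2.57 with quartiles of 1.31 and 4.04. Scr had the highest density, 5.97 per 10 kb, followed by Dfd (4.37), Antp (4.34), lab (4.05), abd-A (3.05), pb (2.94), Ubx (2.05) and Abd-B (1.27). Scr was denser than 93.0% and Abd-B than 23.8% of the 1977 genes of that length. The order of Dfd, Antp and lab rests on 9, 49 and 11 peaks at like densities. No test was made of the difference between the complexes, because peaks in 1 list of fixed length are not replicates. Of the 139 Hox pooled peaks 129 were outside the IDR list, and which of these are background is not known. In the replicates the Antennapedia genes had 90 and 101 peaks and the bithorax genes 33 and 38.

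Copies of AAGCAGT were counted over the gene regions, with or without a peak. The 8 gene regions together held 62 copies, or 14.8 per 100 kb, against 13.0 per 100 kb in the genome. Of these, 8 lay within 100 bp of an IDR summit and 1 more at a low Antp peak (3R, 6907315 to 6907698; signal 65.5), while 53 had no pooled summit within 100 bp. Of the 17376 copies in the genome 7.94% were at a pooled summit and 3.44% at an IDR summit. The 8 Hox copies at IDR summits lay in 4 peaks, so they are not separate cases. The word was found through the highest peaks of these lists, so nothing is read from the Hox count. The bithorax genes had 22 of the 62 copies, 8 in Ubx, 6 in abd-A and 8 in Abd-B, and 0 of these were at a pooled summit. Scr had 11 copies, or 29.8 per 100 kb, abd-A had 18.3 per 100 kb, Antp (19 copies) 16.8, pb (7 copies) 15.8 and Abd-B 14.5. The Scr copies that begin at 6820489 and 6820522 recur at 6822434 and 6822401. They recur on the opposite strand with the same 10 bases on each side, so the Scr density counts a repeated stretch. Below the genome's value were Dfd (2 copies, 9.71 per 100 kb), Ubx (9.11) and lab (1 copy, 3.68). Of the 5 genes with no copy at a pooled summit, abd-A, pb and Abd-B thus lay above the genome's density of the word and Ubx and lab below it.

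Copies of the word were then sorted by their flanking bases. Of the 62 copies 2 matched all 4 flanking bases of GCAAGCAGTGC, those of the Scr upstream and Dfd peaks, and both were at IDR summits. Of 163 such copies in the genome 36.2% were. The genome shares given here include 2L, 3L, X and 4, where the flanking bases were chosen at IDR summits. That choice in part sets them. Of 4 Hox copies with 3 matching bases 1 was at an IDR summit, the first listed for the Antp peak, against 16.8% of 876 in the genome. The other 3 had no pooled summit within 100 bp, and are shown for contrast.
Ubx, plus strand, chr3R:16720452-16720478: agccgacggcAAGCAGTccgcgacatg
Abd-B, minus strand, chr3R:16951863-16951889: aaaaaagagcAAGCAGTgggagtatat
Abd-B, plus strand, chr3R:16966175-16966201: gccgttctggAAGCAGTgcttagtttt
Among the 51 Hox copies with 0 or 1 matching base 4 were at IDR summits, all at the Antp peak and the Scr downstream peak, where copies stand in groups. In the genome 1.55% of 6260 copies with 0 matching bases and 1.89% of 6913 with 1 were at an IDR summit. A match of these letters is a description and does not show a binding site.

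Other words linked to Hox genes were counted within 100 bp of the summit on both strands. GAGAG, part of the sites of GAGA factor, was at 35.3% of the 139 Hox peaks (interval 27.8 to 43.5) and 27.2% of all pooled peaks, and at 1 of the 10 Hox IDR peaks against 29.4% of all IDR peaks. GCCAT, the core of Pleiohomeotic sites in Polycomb response elements, was at 39.6% (31.8 to 47.9) against 34.9%, and at 2 of the 10 against 29.1%. TAATTA, a core bound by homeodomains, was at 10.1% (6.09 to 16.2) against 11.0%, and at 2 of the 10 against 11.2%. Of the 139 Hox peaks 129 were outside the IDR list, and which are background is not known. Median GC content around the summit was 44.8% at the Hox peaks and 42.8% over all pooled peaks. Its part in these shares was not tested, and no count in the same genes away from peaks is given here.

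The limit of 5000 bp decided 4 of the 10 IDR peaks, at 3722 to 4816 bp from Scr, Dfd and abd-A. Just outside it, the Scr region met a further IDR peak at 5742 bp downstream (signal 147, rank 2100), 999 bp from the start of lncRNA:CR42651, and another at 6714 bp (signal 141, rank 2256), 27 bp from that start. At 8441 bp beyond Dfd stood an IDR peak of 146 at lncRNA:CR45915. An IDR peak of 2165 (rank 72) with 1 copy of AAGCAGT lay 8308 bp downstream of abd-A. With 10000 bp on each side the Hox genes had 14 IDR peaks. In the gene body alone they had 5, 4 in Antp and 1 in Abd-B.

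Other genes of the 2 complexes and of Hox function were read from lists. Of 9 neighbours in the complexes 5 had an IDR peak by the same rule, against 33.8% of all protein-coding genes. The neighbours include lncRNA and microRNA genes, for which no such share was computed, and mir-iab-4 and mir-iab-8 have the same coordinates. Nothing is therefore read from this count. The highest was 4769 bp downstream of ftz, the pair-rule gene fushi tarazu (3R, 6870773 to 6871205; signal 3338, rank 50), with 2150 in replicate 2 and 1206 in replicate 3 and 2 copies of AAGCAGT. At bcd, the gene of the anterior determinant Bicoid, a peak 215 bp upstream reached 251 (rank 905), and lncRNA:bxd had an intronic peak of 135. The peaks of lncRNA:iab8 and mir-10 included those described for abd-A and Dfd, and zen, zen2, mir-iab-4 and mir-iab-8 had no IDR peak. Of 3 Hox cofactor genes, hth, which encodes a partner of Extradenticle, had 66 pooled peaks and 3 intronic IDR peaks with signal values from 125 to 130. The genes exd and tsh had no pooled peak.

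Of 7 genes known as targets of Hox proteins in the embryo 4 had an IDR peak, against 33.8% of all protein-coding genes and 54.1% of those of 10 kb or more. That of wg, the Wingless ligand gene, lay in its 3′ UTR (2L, 7315530 to 7315906), with a signal value of 1222 and rank 121, 818 in replicate 2 and 408 in replicate 3, and 3 copies of AAGCAGT. Dll, which Ubx represses in the abdomen, had a peak 79 bp upstream (2R, 24814551 to 24814934; 309 in the pooled list, 168 and 136 in the replicates). At fkh, a salivary gland target of Scr, the peak stood 228 bp upstream (3R, 28585397 to 28585594; 465, with 282 and 185). The dpp peak was intronic (2L, 2433496 to 2433879; 158, with 71.7 and 88.2). None of these 3 held the word, and rpr, salm and rho had pooled peaks of 110, 108 and 89.4 outside the IDR list. The 7 genes were listed with earlier results of these data known, so nothing is read from the count of 4.

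Genes whose highest peak away from start sites was most like that of Antp were ranked by the summed absolute log2 difference in signal value over the pooled and both replicate lists. CG46458 shares the Antp peak and so differed by 0.00. Next came Rtnl1, a reticulon gene (0.14; 7748 in the pooled list, 4924 in replicate 2 and 2830 in replicate 3), slbo, a C/EBP gene of border cells (0.64), bun, a TSC-22 family gene (0.64), and CG13323 (0.72). The peaks of Rtnl1, slbo, bun and CG13323 held 3 copies of AAGCAGT each, against 4 at Antp. The measure ranks peaks by height in 2 replicates and their pool, which share reads.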

How the data were processed

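The authors deposited narrowPeak lists on dm6 for each replicate, for both replicates pooled and for the IDR step, and per the file headers and listing peaks were called against a separate control. The deposited signal value (column 7) ranked peaks within a list. Ranks by the deposited −log10 q-value (column 9) were an alternative. The deposited summit offset (column 10) gave positions. The sources used here do not give the aligner, peak caller, IDR threshold or depth. Per the labels, chromatin was sonicated to 200 to 800 bp, which limits how closely a summit locates binding. Lists of 30000 entries also hold background regions, per the file listing.

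The IDR list equalled the 2821 highest pooled peaks. Genes and start sites came from Ensembl release 115, without transposable elements, pseudogenes and mature microRNA records, on RefSeq sequence of the same assembly. Replicate partners had summits within 100 bp, and a word counted when it lay wholly within 100 bp of a summit. Preferred flanking bases were those most frequent, over 2L, 3L, X and 4, at copies within 50 bp of an IDR summit. Intervals are 95% Wilson intervals and cover counting over peaks only. No test was made, since there is 1 group and the members and gene lists were chosen with earlier results of these data known. Named peaks were every IDR peak, the highest pooled peak of each gene and further pooled peaks with both partners. Neighbours, cofactors and targets came from lists, and likeness to Antp was the summed absolute log2 difference in signal value. The annotated name lncRNA:iab8 was used for iab-8. Word matching and partner finding were tested on simulated data. Python 3.11.15 and matplotlib 3.10.9 were used. Alternatives changed the distance around genes and start sites, the partner and word distances, the part of each list used, the ranking column and the replicate used.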

Additional observations from a re-analysis of the deposited data

How the results depend on the processing

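Of 50 alternatives over 6 values, 35 stayed within 1.5 times the count, within the interval of the share or within the spread of the replicate ranks. With the 15000 highest pooled and 1410 highest IDR peaks, the Hox genes had 60 pooled and 5 IDR peaks, 65.0% of the 60 had both partners and 8.33% held AAGCAGT, with fewer low peaks by construction. IDR peaks numbered 5 in gene bodies alone and 6 with 2000 bp on each side, and 14 with 10000 bp. Without replicate 2 or replicate 3, 8 Hox peaks were among the 2821 highest of the other replicate's own list, which stood in for the IDR list; 6 and 8 of these were partners of IDR peaks. The share with partners was 22.3% within 50 bp, 46.0% within 200 bp and 55.4% by overlap of intervals. Asked of 1 replicate at a time it was 60.4% to 61.9%, by construction higher. The share away from start sites was 85.2% in gene bodies, 84.2% at 500 bp and 67.6% at 2000 bp. The leading Antp peak ranked 1 by column 9, where 3260 pooled peaks shared its value of 3.81, and 4 to 10 in the replicates. Without a replicate, the other replicate's own list, also of 30000 entries, stood in for the pooled list. Its Hox peaks then numbered 123 to 139, with 74.8% to 82.7% away from start sites and 2.88% to 4.07% with AAGCAGT. No paired analysis was possible because the series holds a single group. Read depth was unknown, which limits what can be said of low peaks.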

Other observations

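Between the Hox gene regions, the 2 complexes held 9 further IDR peaks, 7 in the Antennapedia complex and 2 in the bithorax complex. From the 3′ end of lab to the furthest upstream Antp start (338 kb) there were 14 IDR peaks, or 4.14 per 100 kb. From Ubx to Abd-B (316 kb) there were 4, or 1.27 per 100 kb, against 2.11 in the genome. This span begins at the 3′ end of Ubx, so it leaves out the Ubx IDR peak, which lay 892 bp beyond that end. Of the 9, the 4 with AAGCAGT had ranks 50 to 79 and the 5 without it ranks 905 to 2449. Between bcd and Dfd lay 2 of the 4. The first was in an intron of lncRNA:CR42721 (3R, 6768246 to 6768762; 3157 in the pooled list, 2070 in replicate 2, 1099 in replicate 3). The next stood 1300 bp from lncRNA:CR43435 (3R, 6780058 to 6780458; 2013, with 1233 and 784). The others were the peak beyond ftz and, in the bithorax complex, a peak 1694 bp from lncRNA:CR45750 (3R, 16798617 to 16799106; 2165, with 1355 in replicate 2 and 806 in replicate 3). That last peak was the only IDR peak within the bithorax span with the word, and the highest pooled peak there. The nearest copy of the word in the first and last of these 4 peaks is shown, with the word in capitals.
lncRNA:CR42721 peak, minus strand, chr3R:6768435-6768461: ttgtcgatgcAAGCAGTatgtggtgaa
lncRNA:CR45750 peak, minus strand, chr3R:16798935-16798961: gactaggaacAAGCAGTtctgcacact
Of the 18 IDR peaks within the spans of the complexes, those with the word ranked 96 or higher and those without it 548 or lower. The word was chosen on these lists, so this gives no independent support, and no hypothesis was tested.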
